A study of Mus musculus with 5 samples.

Results

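The genes described here are 10 collagen genes of fibrous tissue and bone, Col1a1, Col1a2, Col3a1, Col5a1, Col5a2, Col6a1, Col6a2, Col6a3, Col12a1 and Col14a1. They were chosen by name, through array rows annotated with exactly 1 gene symbol, and are 10 of the 19938 genes tested. Each of the 10 had a single such row on the array, and none appeared in a row with several symbols. Signals came from mandibular condyle cartilage, the articular end of the jaw bone, taken from 129/Sv mice. There were 2 mice without discoidin domain receptor 1 (Ddr1 knockout, mice 2 and 5) and 3 wild-type mice (mice 3, 4 and 6), with 1 Affymetrix mouse gene 1.0 ST array for each. The labels name the knockout and give neither its allele nor the age or sex of the mice. Array names place knockout 2 and wild type 3 in run 1, and knockout 5 and wild types 4 and 6 in run 2. Levels are log2 signals after robust multi-array averaging (RMA), and each change subtracts the wild-type mean from the knockout mean on that log2 scale.

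The condyle is covered by a fibrous layer above its cartilage and rests on bone. Type I collagen, built from the Col1a1 and Col1a2 chains, is the main fibre of both the fibrous layer and bone, and type III collagen, a trimer of the Col3a1 chain, forms thin fibrils with it in soft connective tissue. Type V collagen starts fibrils and limits their width, type VI collagen makes a beaded network around cells, including the pericellular matrix of chondrocytes, and types XII and XIV sit on the surface of fibrils. Ddr1 is a receptor tyrosine kinase switched on by collagen, so these genes encode potential ligands or ligand partners of the deleted receptor. The comparison asks whether their transcripts differ when the receptor is missing.

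Ddr1 itself was at 5.96 and 5.80 in knockout 2 and 5, against 6.02 in each wild-type mouse (change -0.14, SE 0.058, limma's adjusted p = 0.377). The positions of its probes were not used here, so this does not check the labels. The 12 chondrocyte markers ranged in wild-type signal among all genes on the array, which also depends on the probes, from the 23.2nd percentile for Matn1, a cartilage matrix protein, to the 98.9th for Col2a1, the fibrillar collagen of cartilage, with Acan, the cartilage proteoglycan, at the 60.7th. Knockout 2 stood apart from the other arrays. Across genes it correlated with wild-type arrays at 0.814 to 0.837, knockout 5 did so at 0.903 to 0.927, and wild-type arrays correlated with each other at 0.984 to 0.993. Its gene signals also spanned a narrower range, with a standard deviation of 0.802 in knockout mouse 2 and 0.906 in knockout mouse 5, against 0.991 to 1.02 in wild type. Exactly equal values on several arrays occur often in this table, and they do not show equal expression. RMA summarises probes by medians, which can give equal values, but their source was not tested here.

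All 10 collagen genes had their lowest signal in knockout 2, as 34.8% of all genes did, and all 10 were higher in knockout 5 than in knockout 2, as 50.4% of all genes were. Over all 5 arrays limma called 0 of the 10 at adjusted p under 0.05, where it called 3.73% of all genes. At an unadjusted p under 0.05 there were 2 of the 10 and 18.2% of all genes. The 4 genes with both knockouts lower than every wild type were Col1a1, Col1a2, Col3a1 and Col6a1, and 18.6% of all genes showed that order. RefSeq promoter sequences (GRCm38.p6, 250 bases before to 50 after the annotated start) were given for 6 of the 10 genes and for 3 of these 4, and the 3 are shown to set side by side the start regions of the genes that were lower in both knockout mice. Capitals mark matches on either strand to CCAAT, the core bound by the factor NF-Y, and to GGGCGG, the core bound by Sp1. They also mark TATAAA, the sequence of a TATA box, and no match overlaps another.
Col1a2, chr6:4505368-4505667, plus strand: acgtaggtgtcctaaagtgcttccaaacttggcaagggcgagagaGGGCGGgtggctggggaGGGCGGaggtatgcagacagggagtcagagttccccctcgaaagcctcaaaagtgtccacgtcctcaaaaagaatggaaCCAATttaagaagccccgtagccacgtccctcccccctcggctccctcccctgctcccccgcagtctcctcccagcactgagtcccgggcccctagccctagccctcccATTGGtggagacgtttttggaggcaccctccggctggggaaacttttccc
Col3a1, chr1:45311288-45311587, plus strand: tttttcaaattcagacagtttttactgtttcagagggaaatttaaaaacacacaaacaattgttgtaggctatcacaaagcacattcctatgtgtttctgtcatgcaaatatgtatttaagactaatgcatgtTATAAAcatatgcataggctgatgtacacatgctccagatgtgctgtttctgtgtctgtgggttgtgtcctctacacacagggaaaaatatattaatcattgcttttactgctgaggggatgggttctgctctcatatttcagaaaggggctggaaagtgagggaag
Col6a1, chr10:76725995-76726294, minus strand: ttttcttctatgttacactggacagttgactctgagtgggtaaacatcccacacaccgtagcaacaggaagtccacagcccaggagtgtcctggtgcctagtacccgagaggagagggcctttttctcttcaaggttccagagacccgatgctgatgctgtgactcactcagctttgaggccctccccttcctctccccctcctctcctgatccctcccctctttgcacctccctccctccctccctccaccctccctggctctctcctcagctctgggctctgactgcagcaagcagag
The Col1a2 window held 2 matches to CCAAT and 2 to GGGCGG, the Col3a1 window held 1 to TATAAA, and the Col6a1 window held 0 of all 3 motifs. The TATAAA match begins 117 bases before the annotated start, and the CCAAT matches 109 and 0 bases before theirs. Whether any match is in use was not tested. Of 32851 promoter windows of this length, 37.4% held CCAAT, 35.7% held GGGCGG and 13.6% held TATAAA. No motif of the 3 was found in all 3 windows. In the same gene build Col3a1 and Col5a2 are next to each other on chromosome 1, with no protein-coding gene between, as are Col6a1 and Col6a2 on chromosome 10.

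The main fibre-forming collagens had lower signals in both knockout mice as deposited, by more in knockout 2. With arrays centred and scaled, knockout 5 lay at 0.0026 from the wild-type mean for Col1a1, at -0.083 for Col1a2 and at -0.24 for Col3a1, so the lower signal of Col1a1 in both mice is lost under that scaling. Col1a1, the first chain of type I collagen, was at 6.53 in knockout mouse 2 and 7.07 in knockout mouse 5, against 7.26, 7.26 and 7.27 in wild types 3, 4 and 6. Its partner chain Col1a2 was at 6.35 and 6.76 in the knockout mice, against 6.99, 7.05 and 6.99 in the wild-type mice. Col3a1 was at 5.59 and 6.16 in knockout, against 6.60, 6.46 and 6.45 on the wild-type arrays. For these 3 genes the groups did not overlap, and the knockout mice differed from each other by more than the wild-type mice did. Over the group means, Col1a1 averaged 6.80 ± 0.384 in knockout (SD, n = 2) and 7.26 ± 0.0083 in wild type (SD, n = 3), a change of -0.46 (SE 0.184, limma's adjusted p = 0.342). For Col1a2 the change was -0.45 (SE 0.142, adjusted p = 0.237), with a 95% interval of -0.86 to -0.041 before any adjustment. For Col3a1 it was -0.63 (SE 0.201, adjusted p = 0.241), with an interval of -1.21 to -0.051. Col1a2 and Col3a1 were the 2 genes of the 10 with an unadjusted p under 0.05, where 18.2% of all genes tested had one. A lower signal in dissected tissue cannot tell fewer cells of a type from less RNA per cell. The 2 chains of type I collagen differed little from each other on any array. Measured from each gene's own wild-type mean, the value of Col1a2 minus that of Col1a1 was 0.074 in knockout mouse 2 and -0.056 in knockout mouse 5, against -0.030 to 0.047 in the wild-type mice.

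Type V collagen, which joins type I fibrils in small amounts, had its lowest signal in knockout 2 and wild-type signal in knockout 5. Col5a1 was at 6.19 in knockout mouse 2 and 6.51 in knockout mouse 5, against 6.50, 6.53 and 6.51 in wild type. Col5a2 was at 5.27 in knockout 2 and had the same value of 5.44 on the other 4 arrays. For both chains knockout 5 lay within the wild-type range, as it did for 4 of the 10 genes and for 37.4% of all genes. The changes were -0.16 for Col5a1 (SE 0.111) and -0.083 for Col5a2 (SE 0.058), each with adjusted p = 0.399. These 2 were among the smaller differences of knockout 2, at -0.33 and -0.17 against the wild-type mean, and they were at -5.4e-05 and -0.0013 after cyclic loess normalisation between arrays.

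**Figure D1:**
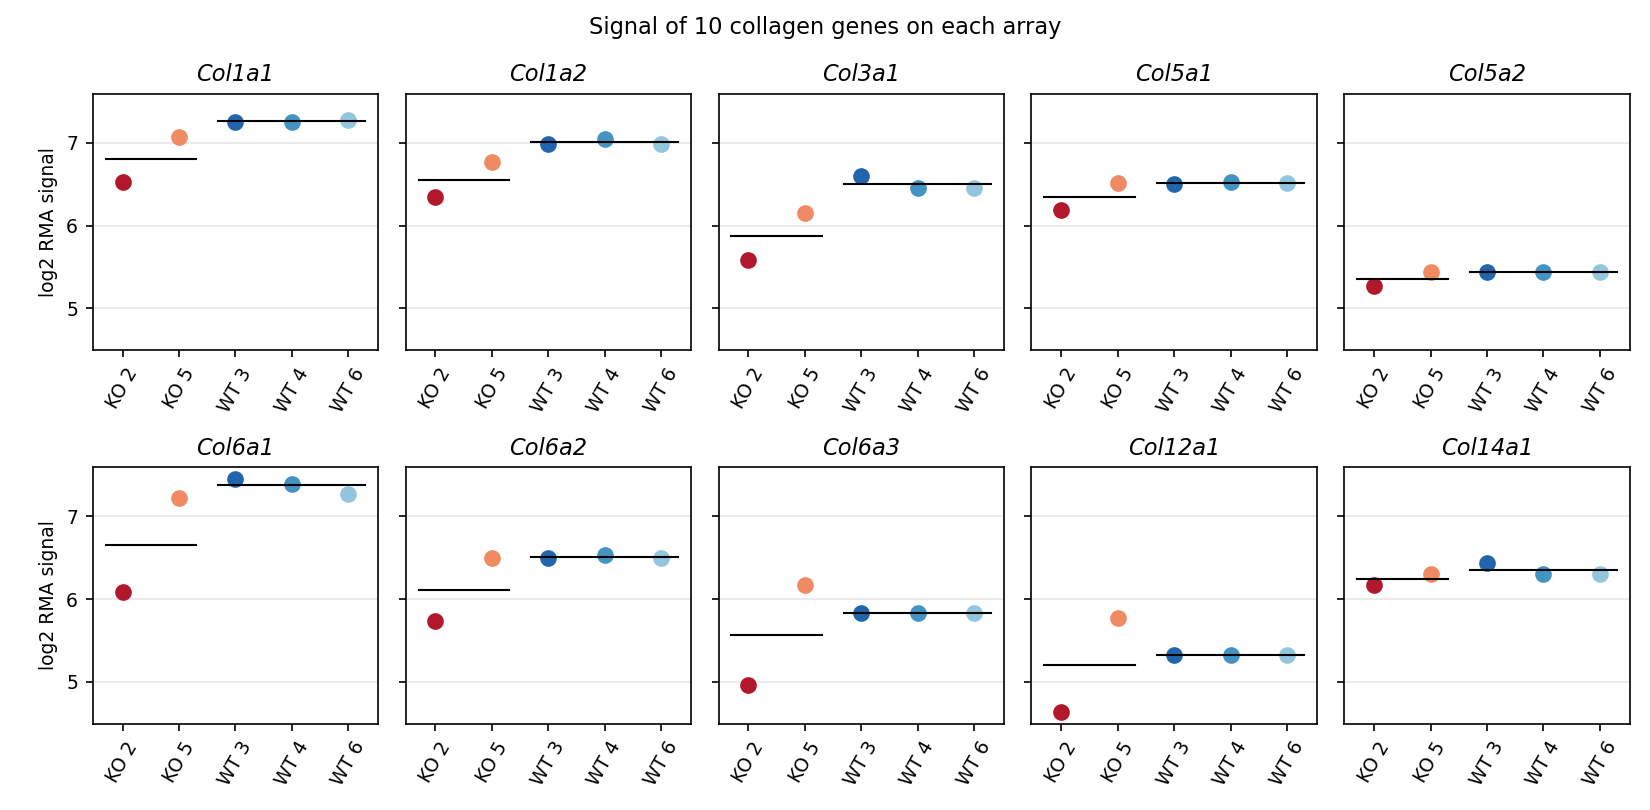
The panels plot the log2 RMA signal (vertical axis) of each of the 10 collagen genes on the arrays of knockout mice 2 and 5 (KO) and wild-type mice 3, 4 and 6 (WT), with black lines at the group means. Knockout 2 is the lowest point in all 10 panels, and knockout 5 lies above all wild-type mice for Col6a3 and Col12a1.

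Type VI collagen held the largest difference of the 10 genes. Col6a1, the chain furthest below wild type in knockout 2, was at 6.09 in knockout mouse 2 and 7.23 in knockout mouse 5, against 7.46, 7.40 and 7.28 in wild type. In linear terms knockout 2 had a 2.44-fold lower signal than the wild-type mean, and knockout 5 a 1.11-fold lower one. With arrays centred and scaled knockout 5 was above the wild-type mean, by 0.056. The change of -0.72 (SE 0.388, limma's adjusted p = 0.399) had a 95% interval of -1.84 to 0.40. Col6a2 was at 5.73 in knockout mouse 2 and 6.49 in knockout mouse 5, against 6.49, 6.53 and 6.49 in wild type, so that knockout 5 lay within the wild-type range. Col6a3, the longest of these 3 chains, was at 4.96 in knockout mouse 2 and 6.18 in knockout mouse 5, against 5.84 in each wild-type mouse. The knockout mice thus lay on opposite sides of wild type for Col6a3, 1.83-fold lower in knockout 2 and 1.26-fold higher in knockout 5. Changes were -0.39 for Col6a2 (SE 0.257, adjusted p = 0.399) and -0.27 for Col6a3 (SE 0.41, adjusted p = 0.677). The 3 chains, which can assemble into 1 type VI trimer, thus differed in size of change, which is given with no test. Taken from their own wild-type means, Col6a2 lay 0.51 above Col6a1 in knockout 2 and 0.14 above it in knockout 5, against -0.094 to 0.086 in wild type. Col6a3 lay 0.41 and 0.49 above Col6a1 in the knockout mice, against -0.079 to 0.10 in wild type.

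The fibril-surface collagens differed from each other. Col12a1, the chain of type XII collagen, which is found in dense connective tissue under tension, was at 4.64 in knockout mouse 2 and 5.77 in knockout mouse 5, against 5.33 in each wild-type mouse. As with Col6a3, the knockout mice lay on either side of wild type. Its change was -0.13 (SE 0.383, adjusted p = 0.863), with a 95% interval of -1.23 to 0.98. Col14a1, the chain of type XIV collagen, was at 6.17 in knockout mouse 2 and 6.31 in knockout mouse 5, against 6.43, 6.31 and 6.31 in wild type, a change of -0.11 (SE 0.069, adjusted p = 0.399). Col14a1 had the smallest gap between the knockout mice of the 10 genes, 0.14, and Col6a3 the widest, 1.21. A split with knockout 2 below and knockout 5 above all wild types was seen in 2 of the 10 genes and in 9.08% of all genes.

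**Figure D2:**
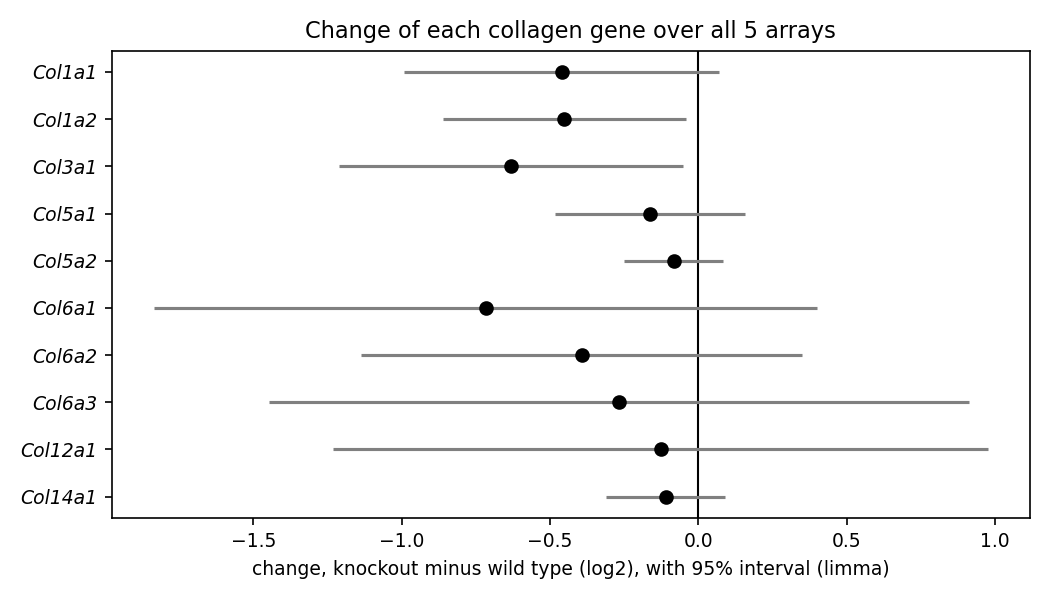
Points give the change of each collagen gene, knockout minus wild type on the log2 scale (horizontal axis), over 2 knockout and 3 wild-type arrays, and lines its 95% interval from limma without adjustment for the number of genes. All 10 points lie below 0, from -0.72 for Col6a1 to -0.083 for Col5a2, and the intervals of Col1a2 and Col3a1 alone leave out 0.

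Of all genes, limma called 1.55% higher and 2.18% lower in knockout. No other normalisation, variance model, filter, array weighting or run block tried with all 5 arrays called any of the 10 collagens. The median change of the 10 was -0.33, against -0.0083 over all genes, and all 10 were lower in knockout, against 51.1% of all genes. Beside the 4 genes with both knockouts below wild type, 0 had both above, against 13% of all genes. Wild-type signals of these collagens lay between the 57.8th percentile of all genes for Col12a1 and the 99.1st for Col6a1, and brighter genes were lower in knockout more often. Among the 8237 genes whose wild-type mean lay between those of Col12a1 and Col6a1, 75.4% were lower in knockout, with a median change of -0.19, and 34% had both knockouts lower than every wild type. Apart from Col5a2, Col6a3 and Col12a1, the 10 lay at the 92.5th percentile or higher. That range therefore holds many dimmer genes, and its shares are not matched to the signal of the 10.

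The difference came mostly from knockout 2. That array gave the lowest value for all 10 genes, against 52.9% of the genes with a wild-type mean between those of Col12a1 and Col6a1. Against the wild-type mean, the median over the 10 was -0.71 in knockout 2 and -0.028 in knockout 5, while over all genes it was 0 in each. Within run 1, knockout 2 was below wild type 3 for all 10 (median -0.71), against 47.5% of all genes. Within run 2, knockout 5 was below the mean of wild types 4 and 6 for 6 of the 10 (median -0.015), against 37.8% of all genes and 54.8% of those in that range of wild-type signal. It was above that mean for 2, Col6a3 and Col12a1, against 37.9% of all genes, and equal to it for Col5a2 and Col14a1. Without knockout 2 the median change was -0.028, with 2 genes called lower (Col1a1 and Col1a2) and 2 called higher (Col6a3 and Col12a1), and without knockout 5 it was -0.71, with 9 called lower. In both of those fits the spread of the lone knockout array was taken from wild type, where 3 of the 10 genes had identical values, as 39.1% of all genes did, so those calls do not measure the spread between knockout mice.

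Scaling the arrays to each other reduced the difference of knockout 2 and left it in place for 7 of the genes. After cyclic loess, knockout 2 remained the lowest array for 7 of the 10 (median -0.40) and for 36.4% of all genes (median -0.0043). After each array was centred and scaled to the same spread, it did so for 8 of the 10 (median -0.36). The share of all genes was then 37.8% (median -0.019). Col6a1, Col6a3, Col3a1, Col12a1 and Col6a2 stayed between -0.46 and -0.88 in knockout 2 after cyclic loess, and Col1a1 and Col1a2 were at -0.33 and -0.29. With arrays centred and scaled the group change of Col1a1 shrank to -0.12 and that of Col1a2 to -0.15. Col5a1, Col5a2 and Col14a1 had group changes that turned to 0.046, 0.014 and 0.087 after cyclic loess. The part that the narrower range of knockout 2 has in its low collagen signals was not tested further.

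**Figure D3:**
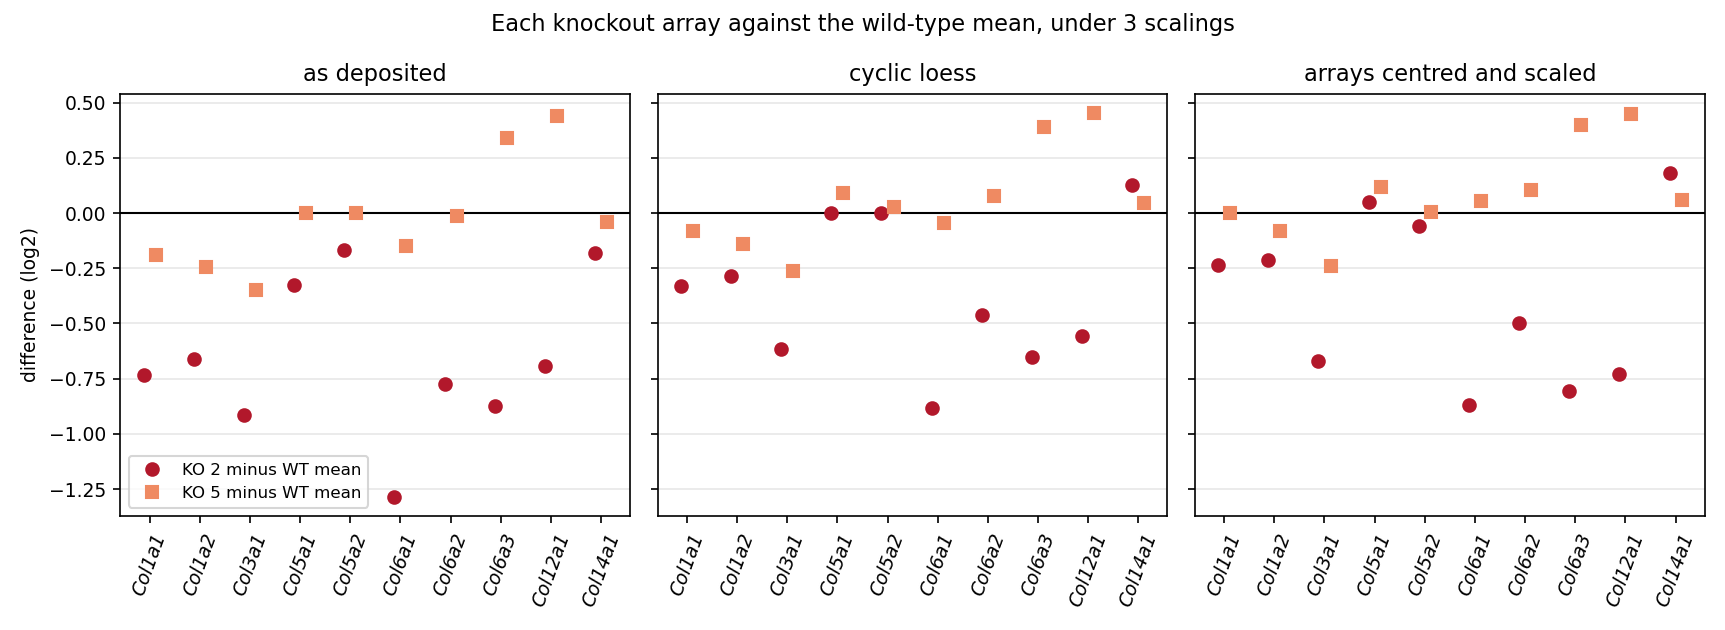
Each panel plots, for the 10 collagen genes, the log2 difference of knockout 2 (circles) and of knockout 5 (squares) from the mean of the 3 wild-type arrays, for the values as deposited, after cyclic loess, and after arrays were centred and scaled. The circles for Col6a1, Col6a2, Col6a3, Col3a1 and Col12a1 stay below -0.45 in all panels, and the squares for Col6a3 and Col12a1 are at 0.34 or higher.

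Genes that process collagen chains held 3 falls and 0 rises among 28 measured, with 25 that did not pass, and a median change of -0.20. Serpinh1, the collagen chaperone of the endoplasmic reticulum, fell by 0.29 (SE 0.024, limma's adjusted p = 0.0276), with 6.28 and 6.22 in the knockout mice against 6.54 in all 3 wild-type mice. Loxl3, a lysyl oxidase-like enzyme that cross-links collagen, fell by 0.41 (SE 0.0442, adjusted p = 0.0397), with 5.22 and 5.30 in knockout against 5.65, 5.73 and 5.65 in wild type. Plod3, a lysyl hydroxylase that also adds sugars to collagen, fell by 0.54 (SE 0.0636, adjusted p = 0.0459), with 5.01 and 4.84 in knockout against 5.44, 5.50 and 5.44 in wild type. For each of these 3 genes both knockouts lay below every wild type. The wild-type values of Serpinh1 are identical, as are those of Col4a1 and Itga11 given further on, and those of Loxl3 and Plod3 hold 2 distinct values, so these SEs rest in part on repeated values. Limma called 0 of all genes with the run as a block or without wild type 3, 4 or 6, where 2312 to 3829 genes had an unadjusted p under 0.05, and every call given here for single genes is lost in those fits. After cyclic loess Serpinh1 was at -0.084 (adjusted p = 0.617), Loxl3 at -0.30 (adjusted p = 0.103) and Plod3 at -0.47 (adjusted p = 0.116), and blocking on the array run gave adjusted p = 0.0684, 0.0784 and 0.0995. Lox, the main cross-linking oxidase, was at 4.14 everywhere but in wild type 6. P4ha1, a subunit of prolyl hydroxylase, was the same on all 5. Such repeated values do not show unchanged expression. Knockout 2 was the lowest array for 15 of the 28 genes. The list's median distance from the wild-type mean was -0.28 in knockout 2 and -0.034 in knockout 5. P4ha2, P4ha3 and P4hb lay at -1.38, -0.63 and -0.81 in knockout 2. In knockout 5 they lay at -0.026, -0.24 and 0.24. Lox and the 4 P4h genes were singled out after their values were seen.

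Other collagens were lower as well. Of 27 further collagens, outside the 10 and the cartilage collagens, 24 were lower in knockout, 2 fell and 25 did not pass. Their median change of -0.33 equals that of the 10 to 2 digits, but the 2 knockout mice contributed differently. The median of the 27 was -0.41 in knockout 2 and -0.25 in knockout 5, against -0.71 and -0.028 for the 10. Within run 2, knockout 5 was below wild type for 22 of the 27 and for 6 of the 10. Col4a1, a chain of basement membrane collagen, fell by 0.24 (SE 0.017, adjusted p = 0.0231), and Col13a1, a transmembrane collagen, fell by 0.92 (SE 0.0751, adjusted p = 0.0276). The change of Col4a1 turned to 0.020 with arrays centred and scaled, while Col13a1 kept -0.69 (adjusted p = 0.104). Among 7 cartilage collagens 6 were lower and 1 fell, Col9a3, a chain of the collagen on type II fibrils, with -0.61 (SE 0.0674, adjusted p = 0.0422), which was -0.30 after centring and scaling (adjusted p = 0.269). With arrays centred and scaled, 4 of the 7 cartilage collagens were lower, with a median change of -0.0059. Under that scaling 20 of the 27 further collagens were lower, with a median of -0.13, and 8 of the 10, with -0.14. The median change over all genes was then -0.024. The further chains of types V and VI, singled out after their values were seen, were also lowest in knockout 2. Col6a6 was at 6.26 and 6.36 in knockout against 7.63, 7.17 and 7.12 in wild type (change -0.997, adjusted p = 0.1). Col6a5 was at 5.29 and 6.12 against 6.46, 6.26 and 6.26, Col6a4 at 4.94 and 5.43 against 5.76, 5.68 and 5.66, and Col5a3 at 6.28 and 6.44 against 6.68, 6.77 and 6.68.

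Collagen receptors moved in both directions. Among 11 measured, 1 rose, 1 fell and 9 did not pass, with a median change of -0.028. Itga11, the integrin chain that binds type I collagen on fibroblasts, rose by 0.29 (SE 0.0266, adjusted p = 0.0323), with 5.69 and 5.63 in the knockout mice against 5.37 in all 3 wild-type mice, and it was 0.40 after cyclic loess (adjusted p = 0.105). Antxr1, a cell surface receptor that binds type VI and type I collagen, fell by 0.43 (SE 0.0463, adjusted p = 0.0407), with 5.52 and 5.43 in knockout against 5.96, 5.88 and 5.88 in wild type, and it was -0.29 after cyclic loess (adjusted p = 0.204). Matrix proteins listed as partners of fibrils held 0 calls among 16, with a median change of 0.046. Their lowest p belonged to Emilin1 (-0.70, adjusted p = 0.263), Lum (0.60, adjusted p = 0.366) and Matn2 (-0.34, adjusted p = 0.399). Their median was -0.24 in knockout 2 and 0.22 in knockout 5, on opposite sides of wild type. Sparc, a collagen-binding matrix protein of bone and fibrous tissue that was singled out after its values were seen, was at 6.36 in knockout mouse 2 and 8.95 in knockout mouse 5, against 7.11, 7.50 and 7.70 in wild type.

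**Figure D4:**
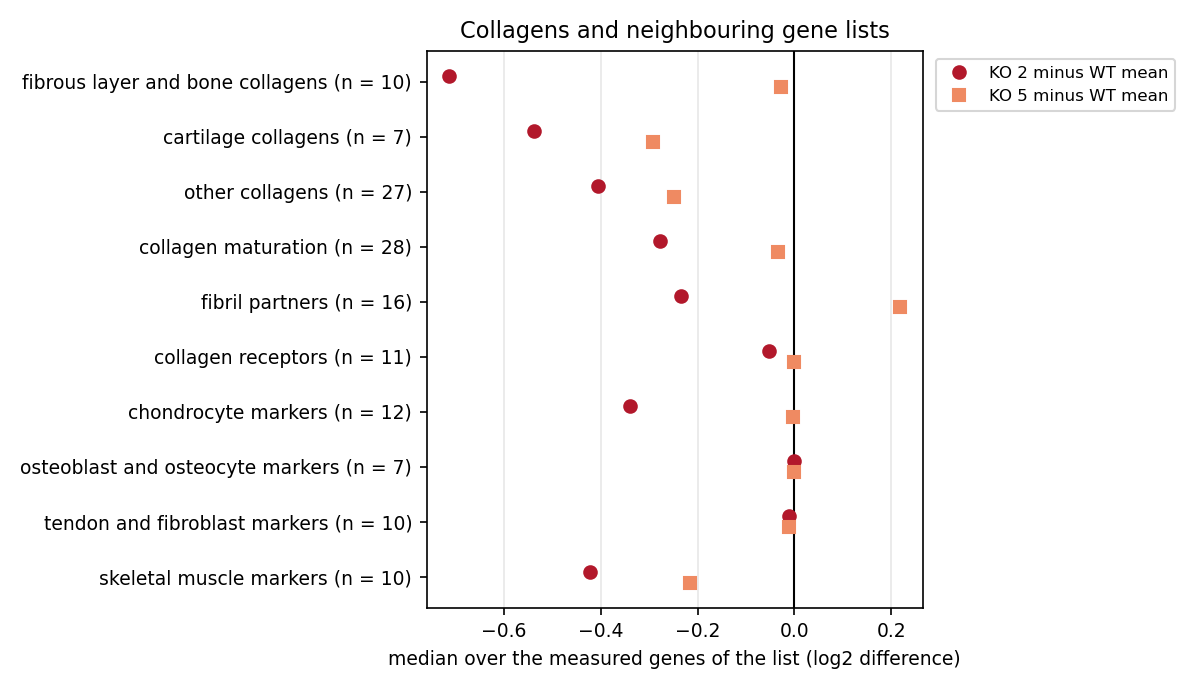
Medians over the measured genes of each list (number in brackets) of the log2 difference of knockout 2 (circles) and knockout 5 (squares) from the wild-type mean. The 10 collagens have the lowest median in knockout 2 of the lists drawn, at -0.71, and a median of -0.028 in knockout 5.

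Markers of cell types that the tissue may hold were read beside the collagens. Osteoblast and osteocyte markers, 7 of 10 measured (not Runx2, Bglap and Spp1), held 0 calls, and their median change was 0, with a median of 0 in each knockout mouse. Sp7 and Mepe had equal values on all 5 arrays, so these medians do not show unchanged expression. Alpl, Ibsp and Sost were lowest in knockout 2, at -0.32, -0.23 and -0.24 from the wild-type mean, while Dmp1 and Phex were at 0 and 0.025. These genes are named after their values were seen. The summed linear signal of the 7 was 323 in knockout mouse 2 and 389.5 in knockout mouse 5, against 363 to 369 in wild type. Tendon and fibroblast markers, 10 of 10 measured, held 0 calls, with a median change of -0.054 and a summed signal of 468 and 491, against 533 to 575. Of these 10 markers, 5 were lower in knockout and 3 were lowest in knockout 2. Their median from the wild-type mean was -0.012 in knockout 2 and -0.011 in knockout 5. Scx, a transcription factor of tendon singled out after its values were seen, was among those 3. It was at 6.10 in knockout mouse 2 and 6.61 in knockout mouse 5, against 7.15, 6.61 and 6.61 in wild type. Twist1, singled out in the same way, was low in knockout 5 only. It was at 6.89 in knockout mouse 2 and 6.09 in knockout mouse 5, against 6.89, 6.89 and 6.90 in wild type. The summed signal of the 10 collagens was 583 in knockout mouse 2 and 896 in knockout mouse 5, against 926 to 961 in wild type. Chondrocyte markers, 12 of 12 measured, share Col2a1, Col9a1 and Col11a1 with the cartilage collagens. The 12 markers had a median change of -0.25 and a summed signal of 617 and 697, against 761 to 770. Of them 11 were lower in knockout and 2 fell, the chondrocyte transcription factor Sox9 (-0.42, adjusted p = 0.0229) and Comp (-0.41, adjusted p = 0.0327), a matrix protein that binds collagen fibrils. With arrays centred and scaled, 8 of the 12 chondrocyte markers were lower, with a median change of -0.15 against -0.024 over all genes. Skeletal muscle markers, 10 of 10 measured, had a median change of -0.49, further below 0 than the -0.33 of the 10 collagens, and a summed signal of 469.6 and 531 in the knockout mice, against 642 to 696 in wild type, with 9 lower and 1 fall, that of the glycogen phosphorylase Pygm (-0.62, adjusted p = 0.0442). The lowest log2 signal among these markers was 3.74. Of the further marker lists, endothelial (7 measured), mural (6), erythroid (5), myeloid and osteoclast (11) and lymphocyte (5) markers held 0 calls, with median changes of -0.17, -0.14, 0, 0.078 and 0.051. Adipocyte markers (6 measured, median -0.045) held 1 fall, that of the lipid droplet protein Cidec (-1.01, adjusted p = 0.0231). Nerve markers (5 measured, median 0.17) held 1 fall, that of the neurofilament chain Nefl (-0.62, adjusted p = 0.0125), and 1 rise, that of the cadherin Cdh19 (0.50, adjusted p = 0.0211), whose change turned to -0.17 after cyclic loess. Cdh19 had a low signal, with 3.27 and 3.19 in knockout 2 and 5 against 2.73 on each wild-type array, the 2.1st percentile of all genes. The part of cell composition in the collagen values was not tested.

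The genes whose pattern over the 5 arrays was most like the median of the 10 collagens were Kcng3, a potassium channel subunit, Mblac2, Eef2, the elongation factor that moves the ribosome along mRNA, Myg1, and Ppm1e, a protein phosphatase. Likeness was the root mean square difference of the 5 log2 values, each taken from the gene's own wild-type mean, and it was 0.0108 for Kcng3 and 0.0125 to 0.0127 for the other 4. Eef2 was at 5.23 in knockout mouse 2 and 5.95 in knockout mouse 5, against 5.96, 5.95 and 5.95 in wild type. The choice of these genes fixes their low value in knockout 2.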

How the data were processed

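Total RNA of mandibular condyle cartilage was hybridised to 5 arrays, 1 per mouse. The deposited table holds log2 values that the authors made with Affymetrix Expression Console and RMA, per the submitters' processing notes, with versions and genome build not given in the sources used here. It has 35556 rows, of which 21789 had 1 gene symbol, 1621 several and 12146 none in the platform annotation. Symbols were updated by gene identifier through the GRCm38.p6 gene table, where 19856 genes matched. Of the 999 genes with several rows the row with the highest mean was kept, leaving 19938 genes. limma 3.58.1 in R 4.3.3 (lmFit and eBayes, two-sided) compared knockout with wild type on all 5 arrays, with Benjamini-Hochberg adjustment over all genes at 0.05. The labels give each mouse a name, strain and genotype and do not say whether samples came from separate litters or preparations, so p-values measure the spread between these samples. The number of arrays limits the precision, and an exact permutation of 2 against 3 arrays cannot go below p = 0.1. The collagens, the 16 other lists and the tests were chosen with earlier results of these data known. Named genes were the 10 collagens, each other list's genes past the threshold (or, with none, its 3 lowest p), marker genes past the threshold, the 5 most alike in pattern, and genes said to be singled out. The fit was tested on simulated data. Alternatives covered array run, normalisation, filters, rows, variance model, array weights, threshold and each array left out. Protein sequences were not used here.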

Additional observations from a re-analysis of the deposited data

How the results depend on the processing

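No paired analysis was possible because the groups share no mouse number. Of 17 alternatives, those that kept all 5 arrays called 0 of the 10 collagens in limma. Over all genes, the 309 higher and 435 lower became 0 and 0 with the array run as a block, after repeated quantile normalisation, after cyclic loess, after centring and scaling of the arrays, and with array weights, where 3829, 4109, 4155, 3815 and 1917 genes had an unadjusted p under 0.05. With genes above the median signal alone, 55 were higher and 391 lower, and with all rows tested 463 were higher and 382 lower. At adjusted p under 0.1, 654 were higher and 976 lower. Centring on medians gave 280 higher and 437 lower. Leaving out 1 array gave 0 to 3930 genes higher and 0 to 6069 lower. It gave 0 to 2 of the collagens called higher, 0 to 9 called lower, 7 to 10 below 0, and a median change of -0.71 to -0.028. The counts of 0 came without wild type 3, 4 or 6, and 2458, 2312 and 2434 genes then had an unadjusted p under 0.05. The median within run 1 was -0.40 after cyclic loess and -0.34 after centring and scaling, and within run 2 it turned to 0.046 and 0.085. Group changes turned in sign after cyclic loess for Col5a1 (0.046), Col5a2 (0.014) and Col14a1 (0.087), with arrays centred and scaled for Col5a1 (0.084) and Col14a1 (0.12), and without knockout 2 for Col6a3 (0.34) and Col12a1 (0.44), which were at -0.87 and -0.69 without knockout 5. With all 5 arrays the other collagens had changes below 0 under each alternative, though of smaller size after centring and scaling, at -0.12 for Col1a1 and -0.15 for Col1a2, and the median stayed between -0.56 and -0.14. The cause of these shifts was not tested.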
